A study of Mus musculus with 26 samples.

Results

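Regions of open chromatin that lay between genes but near one were examined in mesenchyme of the fetal mouse reproductive tract. They were taken from the deposited list of ATAC-seq peaks, stretches of DNA that were accessible to a transposase, which is a single unified list for all ATAC-seq samples and holds no value per sample. A peak on chromosomes 1 to 19 or X was kept when it overlapped no gene span of the fetal count table and lay more than 1 kb and at most 50 kb from the nearest gene start. This gave 17649 intergenic peaks of 70984 on those chromosomes (24.9%) and of 71040 in all, and each was linked to the gene with the nearest start. The rule used position alone, and no expression value entered it.

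All embryos carried a red reporter (Rosa-Tomato), and all dams received 1 mg tamoxifen at E12.5 and E13.5 (embryonic days). In Gli1-CreER; Rosa-Tomato mice tamoxifen marks cells that express Gli1 at that time together with their descendants, and in Amhr2-Cre; Rosa-Tomato mice the Cre is driven by Amhr2, the receptor of anti-Müllerian hormone, without need of the drug. Sorted Gli1+ cells of XX (female) and XY (male) mesonephroi at E14.5 and E16.5 gave 12 RNA-seq libraries, 3 per group, and 8 ATAC-seq samples, 2 per group. Gli1+ and Amhr2+ cells of the E19.5 uterus gave 3 RNA-seq libraries each. The labels do not say whether replicates came from separate litters or how many embryos were pooled, so p-values measure the spread between these libraries, which may be technical.

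Genes are regulated from their promoters and from distal elements, enhancers that bind transcription factors and can lie far away. CTCF binds insulators and the anchors of chromatin loops, and GLI factors are the DNA-binding effectors of hedgehog signalling; Smoothened passes the signal on inside the cell. The mesonephros holds the Wolffian and the Müllerian duct, and their mesenchyme directs which duct persists. The nearest gene is not always the gene that an element acts on.

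Peaks with a match to a GLI sequence are shown first, because, of 23 sequences searched and among those with at least 10 tested linked genes, GLI had the most uneven split of its linked genes between the sexes at E16.5. Each run is 61 bases of mm10 (GRCm38.p6), read 5′ to 3′ on the strand that holds the match, and the capitals mark TGGGTGGTC. Lypd6, Thbs2, Col18a1, Acer3 and H2afy2 were higher in XY than in XX cells at E16.5, RP24-367P22.1 was higher in XX, and Smo, the gene of Smoothened, passed in neither direction. These members were picked after their values were seen.
Lypd6, chr2:50020989-50021049, plus strand: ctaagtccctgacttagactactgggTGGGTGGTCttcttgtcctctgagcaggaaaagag
Thbs2, chr17:14703385-14703445, plus strand: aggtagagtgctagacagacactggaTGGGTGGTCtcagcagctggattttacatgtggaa
Col18a1, chr10:77191209-77191269, minus strand: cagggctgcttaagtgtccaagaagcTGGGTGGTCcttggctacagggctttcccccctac
Acer3, chr7:98323821-98323881, plus strand: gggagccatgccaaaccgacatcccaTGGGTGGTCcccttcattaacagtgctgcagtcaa
H2afy2, chr10:61826966-61827026, minus strand: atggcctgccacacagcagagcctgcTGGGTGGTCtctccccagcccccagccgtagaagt
Smo, chr6:29719047-29719107, plus strand: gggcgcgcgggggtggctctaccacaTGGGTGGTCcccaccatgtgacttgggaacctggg
RP24-367P22.1, chr15:8629587-8629647, plus strand: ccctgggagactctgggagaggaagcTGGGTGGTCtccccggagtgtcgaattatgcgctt
A pair of whole peaks shows the CTCF match, which was densest at the peak centres, in peaks linked to Ramp3 and Esr2. Both are given on the plus strand of mm10, with the match in capitals, which for Esr2 lies on the minus strand.
Ramp3, chr11:6655045-6655142: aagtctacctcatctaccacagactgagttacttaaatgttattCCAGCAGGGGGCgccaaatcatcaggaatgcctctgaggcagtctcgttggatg
Esr2, chr12:76187989-76188093: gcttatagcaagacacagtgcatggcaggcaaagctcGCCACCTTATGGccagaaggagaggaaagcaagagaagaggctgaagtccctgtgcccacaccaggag

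The intergenic peaks were narrower and poorer in CpG than peaks at gene starts. Their median width was 188 bp (quartiles 117 and 340), close to the 187 bp of the 28761 peaks inside genes and well under the 492 bp of the 16347 peaks within 1 kb of a gene start. The 8227 intergenic peaks beyond 50 kb had a median of 219 bp. A peak was called CpG-rich when GC made up at least 50% and the observed CpG count at least 0.6 of that expected. This held for 6.20% of the intergenic peaks near genes (95% Wilson interval 5.85 to 6.56%), for 69.3% at gene starts and for 1.17% of windows placed 1 kb to either side of the intergenic peaks. Peaks inside genes were at 7.37% and far intergenic peaks at 2.30%. Among the intergenic peaks near genes the share was 13.8% at 1 to 2 kb from a start and 3.67% at 40 to 50 kb. All intervals cover counting error only.

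The median distance to the linked gene start was 15481 bp (quartiles 7339 and 27955). Upstream of their gene lay 11621 peaks (65.8%) and downstream 6028, but upstream intergenic sequence was also longer. Per megabase of such sequence, 24.2 peaks lay upstream and 22.9 downstream. The density was 27.9 peaks per Mb at 1 to 2 kb, 24.5 at 10 to 20 kb and 19.8 at 40 to 50 kb, and beyond 100 kb it was 9.88. Across chromosomes the intergenic peaks near genes numbered 6.88 per Mb on X, against 19.6 on chromosome 7, the lowest autosome, and 36.1 on chromosome 11, the highest. X is present in 1 copy in XY cells, and its density by sex cannot be told from a single list.

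**Figure D1:**
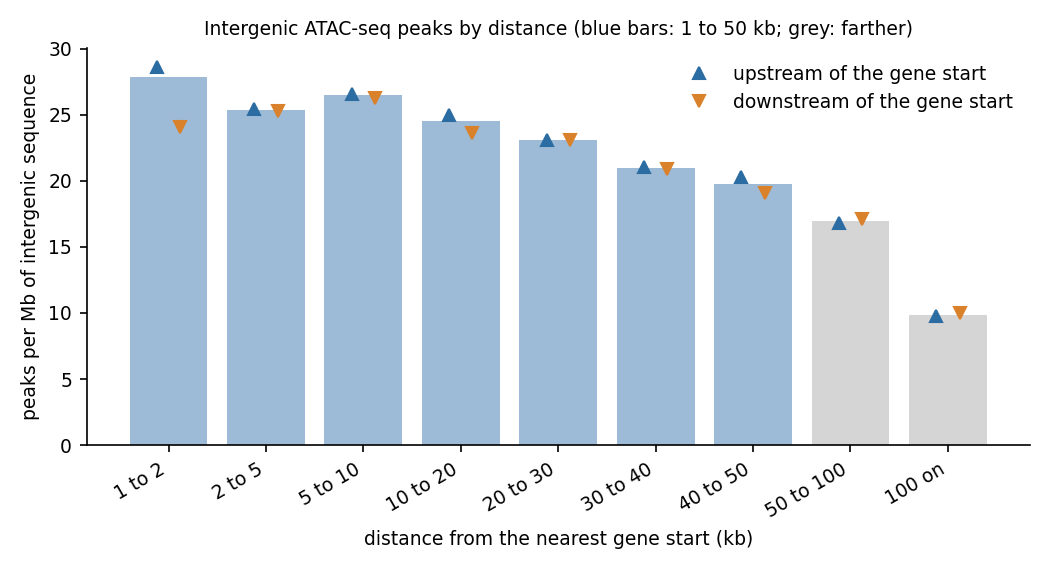
Intergenic peaks per Mb of intergenic sequence (vertical axis) by distance from the nearest gene start in kb (horizontal axis); blue bars are the 17649 peaks from 1 to 50 kb, grey bars those farther away, and triangles split each bar into upstream and downstream. The bars fall from 27.9 per Mb at 1 to 2 kb to 9.88 beyond 100 kb, and the sides differ most in the first bar.

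The borders of the rule did not coincide with a step in number. There were 95 kept peaks from 1 to 1.1 kb and 107 intergenic peaks from 0.9 to 1 kb. There were 168 kept peaks from 49 to 50 kb and 157 from 50 to 51 kb. Against GENCODE release 21, a separate annotation of the same build, 1262 intergenic peaks (7.15%) overlapped a gene and 491 (2.78%) lay within 1 kb of a transcript start. Those 491 had a median GC of 55% and a median width of 250 bp, the other peaks 48.5% and 188 bp. Another intergenic peak lay within 5 kb of 31.6% of them and within 1 kb of 10.96%.

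The CTCF sequence, on either strand, was found in the central 200 bases of 12.3% of the intergenic peaks near genes, against 9.77% of peaks inside genes, 5.58% of far intergenic peaks, 3.41% of peaks at gene starts and 1.75% of windows 1 kb away. Over all peaks the share was 8.45%. Peaks narrower than 233 bp, the median of all peaks, held it in 18.4% of cases and wider ones in 3.46%. By distance the share was 16.7% at 2 to 5 kb and 7.10% at 40 to 50 kb. In bins of 20 bases, 4.75% of the peaks had a CTCF match with its middle in a bin at their centre and 0.119% in the last bin, near 500 bases out.

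Sequences of E-box, TEAD and PBX-HOX factors were also more frequent in the intergenic peaks than beside them. The windows 1 kb away differed in composition, with a median GC of 45.5% against 48.5% in the peaks. On average 27.5% of their bases were masked as repeats, against 10.1% in the peaks. The part of base content and repeats in any contrast with these windows was not tested. The palindromic E-box CAGCTG, bound by bHLH factors such as TCF21, was present in 21.4% of the 200-base windows against 9.19% of windows 1 kb away, and in 20.2% of all peaks. The asymmetric E-box CAGATG gave 22.6% against 15.2%, and 19.7% of all peaks. The TEAD sequence ACATTCC, read by the effectors of the Hippo pathway, gave 5.36% against 2.76%, and 4.84% of all peaks. PBX-HOX (TGATTNAT) gave 4.54% against 3.02%, and 3.95% of all peaks. The steroid receptor palindrome gave 1.502% against 0.340%, and 1.43% of all peaks. The AP-1 sequence TGANTCA gave 7.04% against 5.98%, and 5.92% of all peaks. The homeobox sequence TAATTA went the other way, with 4.61% in the peaks and 5.54% beside them, as did SOX (ACAATGG) with 2.03% and 2.98%. In all peaks these were at 3.93% and 1.78%. Posterior HOX (CAATAAA), RUNX (TGTGGTT) and NFY (CCAATCA) were also lower in the peaks, at 3.84, 4.14 and 2.05% against 4.33, 5.17 and 2.41% beside them. Their shares of all peaks were 3.31, 3.69 and 2.73%. The rare direct repeat of nuclear receptors gave 0.0397% against 0.0907%, and 0.0451% of all peaks. For the E-box, TEAD, PBX-HOX, steroid receptor and AP-1 sequences, peaks inside genes and far intergenic peaks had shares near those of the near intergenic peaks or higher. The palindromic E-box was in 22.7% and 21.9% of them, TEAD in 5.86% and 5.91% and PBX-HOX in 4.43% and 6.93%. For the steroid receptor palindrome the shares were 1.77% and 1.97%, and for AP-1 6.63% and 7.46%. Peaks at gene starts were lower, with 13.7% for the palindromic E-box and 1.94% for TEAD.

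**Figure D2:**
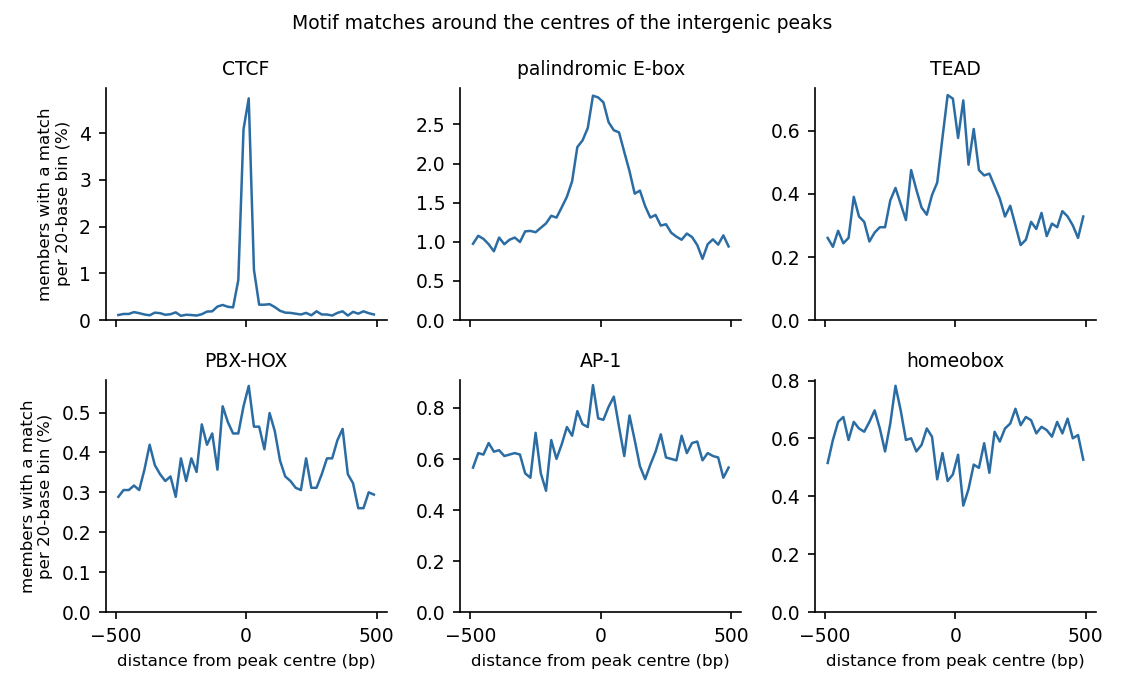
Share of the 17649 intergenic peaks with the middle of a match in each 20-base bin (vertical axes, percent) by distance from the peak centre in bp (horizontal axes), for 6 sequences. Each panel has its own scale from 0. CTCF rises to 4.75% at the centre, the palindromic E-box and TEAD have broader central maxima, and the homeobox sequence is lowest near the centre.

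Linked peaks were spread over 9768 of the 41442 genes in the table. Of these, 5502 had 1 peak, 2335 had 2 and 1931 had 3 or more, with 408 at 5 or more. The count filter left 4478 linked genes (45.8%) to test in the fetal libraries and 4100 in the uterine libraries, and 7721 peaks (43.7%) were linked to a tested fetal gene. The gene with the most peaks, Gm25888, had 14 and was at 0 in every library. Among the 12 most linked genes only RP23-179D3.4 (12 peaks) and Fos, Sik1, Cyp1b1 and Srp9 (10 each) were tested.

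Library totals were 23382983 to 64602477 counts in the fetal table and 28709191 to 37541045 in the uterine table. The summed level of 6 mesenchyme markers was 14199 to 27799 CPM (read counts scaled to library sizes adjusted by TMM) over the fetal libraries, led by Col1a1, and that of 6 epithelial markers 13.6 to 39.1 CPM. Markers of other types were as high or higher: 6 gonad somatic markers 44.6 to 71.3 CPM, 4 endothelial 33.0 to 67.7 and 4 immune 11.6 to 67.8. The 4 smooth muscle markers differed by sex, with 258 to 362 CPM in XX and 1505 to 2690 CPM in XY cells at E16.5. Endothelial markers were then at 33.0 to 40.8 CPM in XX and 50.4 to 63.6 CPM in XY cells. Gonad somatic markers were at 45.8 to 52.1 and 63.6 to 71.3 CPM. The 5 erythroid markers ranged from 4.66 to 945 CPM among the E14.5 XX libraries. In sorted bulk samples, fewer cells of a type and less RNA per cell cannot be told apart. The part of these markers in the results that follow was not tested. Changes were tested with edgeR's quasi-likelihood test and Benjamini-Hochberg adjustment over all tested genes, at an adjusted p under 0.05, and every adjusted p given here is from that test unless another fit is named.

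Genes with a linked intergenic peak differed between the sexes at E16.5 more often than tested genes as a whole. Of 4478 linked genes, 757 were higher in XX (16.9%, background 13.2%) and 831 in XY (18.6%, background 14.1%). Together this was 1588 (35.5%, Wilson interval 34.1 to 36.9%), beside 27.3% of all 17858 tested genes and 24.6% of the 13380 without a linked peak. The median log2 difference, XX minus XY, was -0.01 in linked genes and 0.01 in all, values that the normalization holds near 0. The share was 34.0% of genes with 1 linked peak, 35.5% with 2, 39.8% with 3 or 4 and 41.8% with 5 or more, and the intervals of neighbouring classes overlap. Not every comparison rose throughout. The interaction of sex and age gave 13.4, 15.1, 18.9 and 11.3%, and age in XX 44.2, 46.6, 49.8 and 46.1%. Median levels in these classes were 16.6, 19.9, 27.9 and 23.5 CPM, and the shares by number of peaks were not split by level. Linked genes also had a higher median level than the others, 18.7 against 14.4 CPM. Within genes of a mean from 10 to 100 CPM, 38.7% of linked and 28.9% of unlinked genes were called, and below 1 CPM 24.0% and 13.0%. The distance of the nearest peak showed no order, with 35.3% called at 1 to 5 kb and 37.3% at 20 to 50 kb. Genes are not independent replicates, and these shares are a description with no test.

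At E14.5 fewer linked genes differed by sex. Of the 4478, 174 were higher in XX (3.89%, background 2.59%) and 256 in XY (5.72%, background 3.69%), 430 in all (9.60%, background 6.28%). This count rested on single libraries: it was 239, 266 and 263 without XX replicate 1, 2 or 3, and 280 and 223 without XY replicate 2 or 3. A sex difference that changed with age was called for 649 linked genes (14.49%, background 10%), of which 296 moved toward XX (background 4.66%) and 353 toward XY (background 5.36%).

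Age itself touched more linked genes in XX than in XY cells. From E14.5 to E16.5, 1055 rose (background 21%) and 988 fell (background 18.6%) in XX cells, 2043 of 4478 (45.6%, background 39.6%). In XY cells 754 rose (background 13.1%) and 595 fell (background 10.2%), 1349 in all (30.1%, background 23.3%). In the uterus 479 of 4100 linked genes were higher in Amhr2+ cells (11.7%, background 10.1%) and 756 in Gli1+ cells (18.4%, background 13.7%), 1235 in all (30.1%, background 23.9%). Without Amhr2+ replicate 1 the uterine total was 731. No ATAC-seq sample came from the uterus, so uterine genes were linked to peaks of the fetal mesonephric cells. In each of these comparisons linked genes were called more often than unlinked ones in all 4 classes of mean level, under 1, 1 to 10, 10 to 100 and 100 CPM and above.

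**Figure D3:**
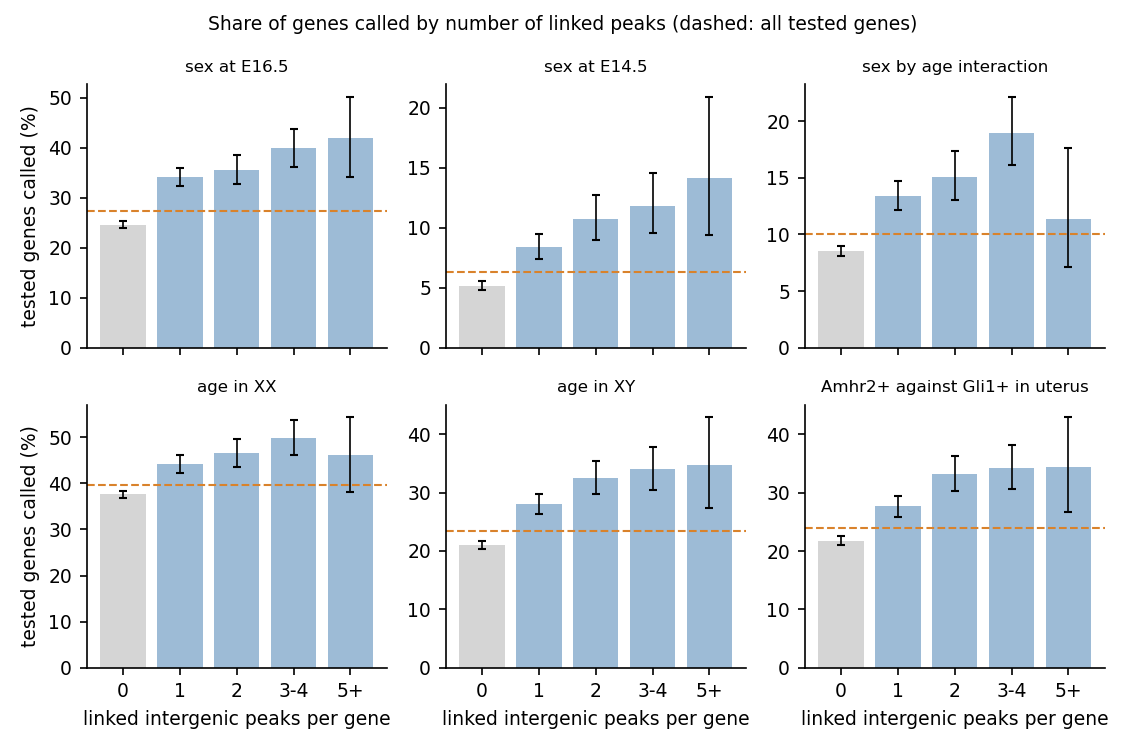
Percent of tested genes called (vertical axes) by number of linked intergenic peaks (horizontal axes) in the 6 comparisons; bars carry 95% Wilson intervals, the grey bar is genes with no linked peak and the dashed line all tested genes. For sex at E16.5 the bars run from 24.6% with no linked peak to 41.8% with 5 or more, and in every panel the grey bar is under the dashed line. For the interaction and for age in XX the last bar is lower than the one before it.

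Among genes with at least 3 linked peaks, those with the largest excess in XX cells at E16.5 included a retinoid-binding protein, a steroid receptor and surface proteins. Crabp1, which binds retinoic acid in the cytoplasm, had 4 linked peaks from 14.3 to 45.3 kb away. It was at 118, 131 and 140 CPM in the XX libraries and 38.3, 35.7 and 34.4 CPM in the XY libraries (log2 difference 1.84, SE 0.07, adjusted p = 1.06e-10). All XX libraries lay above all XY libraries, as the rule that named the gene required. At E14.5 it was at 55.9, 54.7 and 52.4 CPM in XX and 47.5, 52.3 and 50.5 CPM in XY (log2 0.12, adjusted p = 0.436), so the groups nearly touched.

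Esr1, the main oestrogen receptor of the reproductive tract, had 3 linked peaks, all upstream, at 19.9, 20.4 and 38.4 kb. Its levels at E16.5 were 195, 199 and 193 CPM in XX and 80.4, 82.0 and 83.3 CPM in XY (log2 1.26, SE 0.05, adjusted p = 1.35e-10). At E14.5 they were 131, 128 and 130 CPM against 99.8, 104 and 100 CPM (log2 0.35, adjusted p = 0.000534). The groups were apart at both ages, at E16.5 by the rule that named the gene, and the difference grew (interaction log2 0.91, adjusted p = 9.88e-07). Esr1 rose with age in XX (log2 0.60) and fell in XY (log2 -0.31).

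Gja1, the gap-junction protein connexin 43, had 3 upstream peaks, the nearest at 4.05 kb. At E16.5 it was at 60.0, 71.6 and 60.0 CPM in XX and 29.5, 23.2 and 27.6 CPM in XY (log2 1.26, SE 0.10, adjusted p = 2.35e-07). Ramp3, a partner of calcitonin-family receptors, had 3 peaks, the nearest being the CTCF-bearing peak printed above at 3.38 kb. It was at 34.2, 37.0 and 31.1 CPM in XX and 16.2, 16.2 and 11.7 CPM in XY at E16.5, and at 41.7, 34.7 and 35.2 against 17.0, 13.7 and 14.97 CPM at E14.5. Its differences were alike at the 2 ages, log2 1.22 and 1.29 (SE 0.12 and 0.13, interaction -0.07, SE 0.18). Tgfbi, a secreted matrix protein, differed by 1.79 on the log2 scale, E330013P04Rik by 1.59, Tenm4, a teneurin, by 1.35 and Lonrf1 by 1.24.

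Among genes with at least 3 linked peaks and a mean of 10 CPM in the higher group, the largest excess in XY cells belonged to Epha8, an ephrin receptor kinase, with 3 peaks within 14.3 kb upstream. At E16.5 it was at 1.96, 2.36 and 1.89 CPM in XX and 18.8, 23.7 and 17.4 CPM in XY (log2 -3.27, SE 0.14, adjusted p = 1.5e-10). At E14.5 the levels were 11.2, 12.2 and 10.8 CPM in XX and 19.1, 21.8 and 19.46 CPM in XY. The XY level held while the XX level fell with age (log2 -2.45, adjusted p = 3.43e-09, against -0.01, adjusted p = 0.955, in XY). The 2 peaks nearest to Epha8 both held a PBX-HOX match, found in 4.54% of the intergenic peaks. Of 263 tested genes linked to such peaks, 22.8% were higher in XY and 19.4% in XX at E16.5. Among all linked genes the shares were 18.6% and 16.9%.

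Cldn1, a tight-junction protein, had 4 linked peaks and was at 13.1, 10.4 and 8.36 CPM in XX and 69.2, 53.4 and 55.9 CPM in XY at E16.5 (log2 -2.49, SE 0.15, adjusted p = 5.35e-08). It was already apart at E14.5 (log2 -1.82, adjusted p = 1.07e-05). Maob, the X-linked monoamine oxidase B, was at 11.1, 10.9 and 11.1 CPM in XX and 51.6, 58.1 and 63.6 CPM in XY (log2 -2.39, SE 0.12, adjusted p = 1.13e-09). It rose with age in both sexes, by 1.48 in XX and 2.57 in XY on the log2 scale. Il33, an alarmin cytokine, was at 30.7, 24.9 and 26.8 CPM in XX and 106, 82.9 and 85.4 CPM in XY (log2 -1.74, SE 0.11, adjusted p = 1.27e-08). The others were RP24-108B4.2 (log2 -2.49), the DM-domain gene Dmrt2 (-2.40), Tmcc3 with 6 upstream peaks (-1.97) and Fam65b (-1.84).

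**Figure D4:**
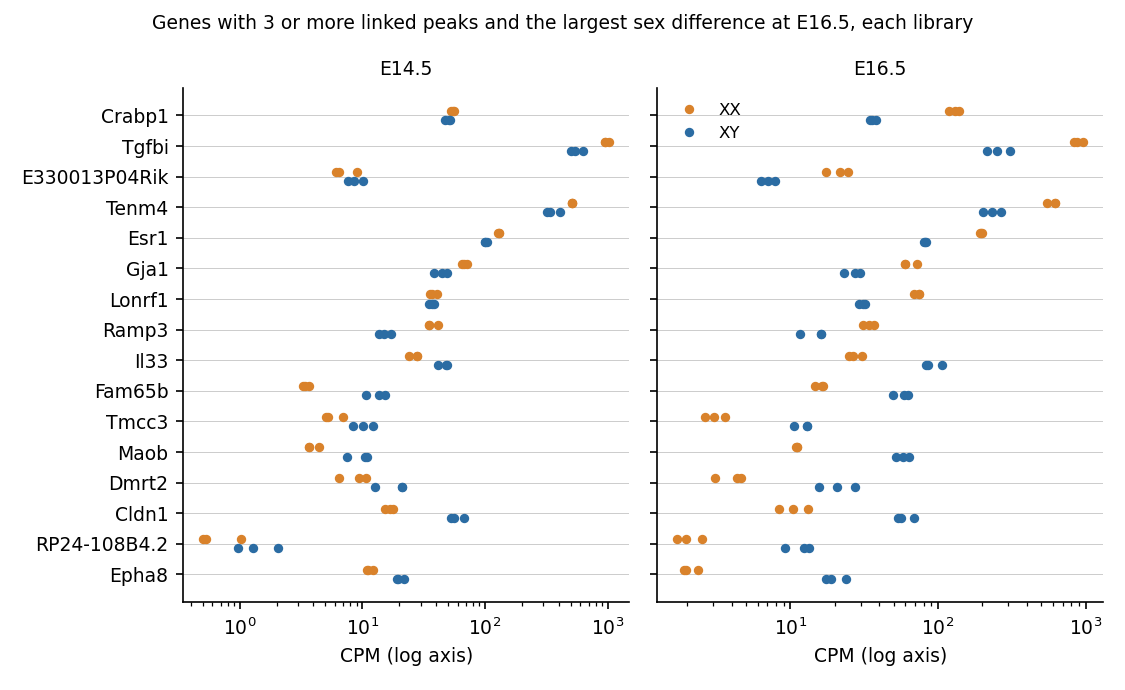
CPM on a log axis (horizontal) at E14.5 and E16.5 for the 16 genes with at least 3 linked peaks and the largest sex differences at E16.5 (vertical); each point is 1 library, orange XX and blue XY. At E16.5 the 2 colours are apart for every gene shown, by the rule that chose them, while at E14.5 they nearly touch for Crabp1 and overlap for E330013P04Rik, Lonrf1 and RP24-108B4.2.

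At E14.5 the largest differences among genes with 3 or more linked peaks included Etv4, Nfam1 and Rbm24. Etv4, an ETS factor that responds to FGF signals, had 6 upstream peaks and was at 15.4, 14.1 and 14.8 CPM in XX and 3.45, 4.72 and 2.81 CPM in XY (log2 2.01, SE 0.17, adjusted p = 4.25e-06). Nfam1 was at 16.7, 19.47 and 17.5 CPM in XX and 9.34, 6.99 and 6.76 CPM in XY (log2 1.23), and by E16.5 both sexes were under 3 CPM (log2 -0.01, adjusted p = 0.969). Rbm24, an RNA-binding protein of muscle, was at 5.41, 4.34 and 4.38 CPM in XX and 10.1, 11.9 and 14.8 CPM in XY (log2 -1.39, adjusted p = 0.0313), a call lost in 6 alternatives (adjusted p 0.0735 to 0.118).

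Among genes with 3 or more linked peaks, Dpt and Zcchc5 rose and Hmga2 fell with age in both sexes. RP24-108B4.2 rose by 1.60 in XX and 2.98 in XY on the log2 scale, and Zcchc5 by 3.03 and 2.65. Dpt, the matrix protein dermatopontin, went from 5.21, 5.61 and 5.32 CPM to 84.9, 92.2 and 96.0 CPM in XX and from 3.66, 5.14 and 7.20 CPM to 72.8, 62.5 and 67.7 CPM in XY (log2 4.08 and 3.62, SE 0.17 and 0.16). Hmga2, a chromatin protein of embryonic growth, went from 619, 590 and 580 CPM to 116, 111 and 92.2 CPM in XX and from 393, 393 and 329 CPM to 68.2, 43.7 and 43.5 CPM in XY (log2 -2.48 and -2.84). Col14a1, a fibril-associated collagen, rose in both sexes (log2 1.24 and 1.03). None of the 3 genes had a called interaction of sex and age.

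In the uterus Dpt was at 9.98, 10.5 and 7.49 CPM in Amhr2+ and 116, 160 and 158 CPM in Gli1+ cells (log2 -3.95, SE 0.17, adjusted p = 1.26e-05). Col14a1, with 3 peaks from 1.13 to 15.7 kb upstream, was at 51.7, 51.5 and 53.1 CPM against 666, 793 and 663 CPM (log2 -3.76, SE 0.09, adjusted p = 2.45e-07). Nov, a secreted CCN protein, was at 0.544, 0.620 and 0.407 CPM against 18.8, 17.7 and 16.6 CPM (log2 -5.05, adjusted p = 2.17e-06). In all 3 genes the groups did not overlap, as the rule that named them required. Gja1 was higher in Amhr2+ cells, at 370, 353 and 401 CPM against 161, 147 and 171 CPM (log2 1.23, adjusted p = 3.06e-05). Hmga2 (log2 1.76, adjusted p = 0.0147) and Sox11 (log2 1.34, adjusted p = 0.0197) were also higher in Amhr2+ cells, calls that were lost without Amhr2+ replicate 1 and in 2 and 3 other settings (adjusted p up to 0.0583 and 0.0905).

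Of the most linked genes, Fos, an immediate-early factor of AP-1, had 10 peaks within 18.3 kb, 5 on each side. Its level was high but uneven, with 2878, 1725 and 3423 CPM in XX and 602, 2151 and 3780 CPM in XY at E16.5 (log2 0.30, SE 0.54, adjusted p = 0.747). Sik1, a stress-inducible kinase, was at 317, 337 and 459 CPM in XX and 105, 227 and 259 CPM in XY (log2 0.91, adjusted p = 0.0707, and 0.0444 with replicate number as a block). Cyp1b1, an oxidase of retinoids and oestrogens, was at 90.6, 81.2 and 71.1 CPM in XX and 211, 190 and 211 CPM in XY (log2 -1.33, SE 0.09, adjusted p = 1.64e-08). At E14.5 it showed no such split (log2 -0.08, adjusted p = 0.698), and in the uterus it was at 6.77, 6.26 and 6.98 CPM in Amhr2+ and 33.5, 40.2 and 34.6 CPM in Gli1+ cells.

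Among genes of the hedgehog pathway, Smo, Boc and Cdon had 1 linked intergenic peak each, while Gli1 and Hhip had none. Smo, the signal transducer, was at 216, 242 and 199 CPM in XX and 219, 239 and 198 CPM in XY at E16.5 (log2 0.01, SE 0.08, adjusted p = 0.97), with the groups overlapping. Boc, a hedgehog co-receptor, was at 231, 228 and 224 CPM in XX and 264, 309 and 325 CPM in XY (log2 -0.39, adjusted p = 0.000504). Cdon, a co-receptor of the same family, went the other way, with 355, 391 and 390 CPM in XX and 247, 251 and 225 CPM in XY (log2 0.65, adjusted p = 3.35e-05).

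A GLI match lay in the central 200 bases of 75 intergenic peaks (0.425%), against 0.251% of peaks at gene starts, 0.313% inside genes, 0.365% far from genes and 0.142% of windows 1 kb away, with 0.332% over all peaks. Each of the 75 was linked to a different gene, and 37 of these genes were tested. At E16.5, 15 of the 37 were higher in XY (40.5%, Wilson interval 26.3 to 56.5%), where 18.6% of all linked genes and 14.1% of all tested genes were. Only 2 of the 37 were higher in XX (5.41%, interval 1.495 to 17.7%), where 16.9% of linked genes were. At E14.5, 5 of the 37 were higher in XY (background 3.69%) and 0 in XX (background 2.59%), and all 5 were also called at E16.5. Of these E14.5 calls, those of Acer3 and Ica1 were each lost in 4 settings (adjusted p up to 0.0691 and 0.130). The estimate was lower in XX for 67.6% of the 37 genes and for 51.1% of all linked genes. Of the other sequences with at least 100 tested genes, the steroid receptor palindrome came nearest, with 26.1% of 111 genes higher in XY and 11.7% in XX. It was followed by TCF/LEF (CTTTGAT) with 28.8% and 17.2% of 215 genes, while CTCF gave 15.95% and 16.1% of 1047 genes. The GLI group was picked out from 23 sequences after its values were seen, and the shares carry no test. With 100-base windows the XY count was 8 of 19 genes, and with a match anywhere in the peak 21 of 46, beside 5 higher in XX.

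Lypd6, a Ly6-family protein of the cell surface whose peak lay 45.3 kb upstream, was at 3.48, 3.25 and 3.99 CPM in XX and 23.1, 31.3 and 31.3 CPM in XY at E16.5 (log2 -2.999, SE 0.13, adjusted p = 2.62e-10). At E14.5 it was at 4.44, 4.22 and 4.31 CPM against 4.88, 4.6 and 5.38 CPM (log2 -0.20, adjusted p = 0.494), and the interaction was -2.80 (adjusted p = 2.62e-07). Lypd6 thus separated at the later age, while Col18a1, a basement membrane collagen, was apart at both. Col18a1 was at 148, 161 and 132 CPM in XX and 245, 235 and 198 CPM in XY at E16.5 (log2 -0.62, SE 0.09, adjusted p = 6.05e-05), and its E14.5 difference was -0.69.

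Thbs2, the matrix protein thrombospondin 2 with its peak 9.15 kb upstream, was at 175, 167 and 137 CPM in XX and 300, 367 and 311 CPM in XY (log2 -1.03, SE 0.12, adjusted p = 1.32e-05). In the uterus it was at 19.55, 22.2 and 10.5 CPM in Amhr2+ and 186, 214 and 154 CPM in Gli1+ cells (log2 -3.40, adjusted p = 0.000779). Acer3, a ceramidase, was at 9.18, 8.74 and 10.4 CPM in XX and 12.49, 15.3 and 15.6 CPM in XY (log2 -0.62, adjusted p = 0.0013), and H2afy2, a macroH2A histone, at 93.4, 102 and 94.2 against 130, 126 and 124 CPM (log2 -0.39, adjusted p = 6.71e-05). Other genes higher in XY at E16.5 were Blm (log2 -0.43), Rmnd5b (-0.41), Ica1 (-0.40), RP23-32M15.2 (-0.31), Tenm3 (-0.30) and Ptgfrn (-0.21). The low genes RP23-438F16.21 (-4.40), Slc22a8 (-2.44) and RP24-270A10.5 (-1.49) were all under 4 CPM. Calls were lost in some settings for Ica1 (adjusted p up to 0.123), Ptgfrn (0.132), RP24-270A10.5 (0.243) and RP23-204P1.2 (0.0883), the last being 1 of the 2 higher in XX. The other, RP24-367P22.1, was at 3.16, 2.81 and 2.68 CPM in XX and 1.21, 2.19 and 0.808 CPM in XY (log2 1.08, SE 0.27, adjusted p = 0.00696).

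**Figure D5:**
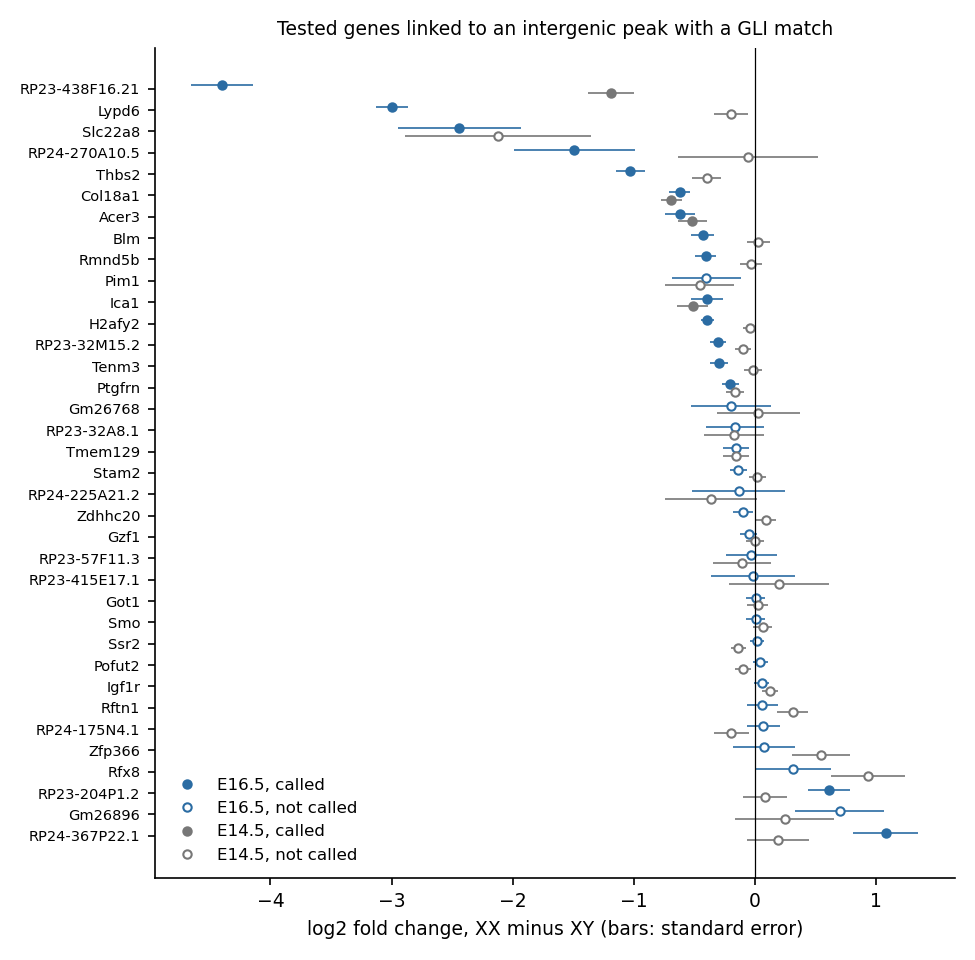
Log2 fold change, XX minus XY (horizontal axis, bars are standard errors), at E16.5 (blue) and E14.5 (grey) for tested genes linked to an intergenic peak with a GLI match (vertical axis, 1 of the 37 not shown); filled points are called. At E16.5 all but 2 of the filled points lie on the XY side, and Smo is at 0.01.

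Of the 6 steroid receptor genes, 3 had linked peaks, 7 peaks in all. Esr1 was described above, Esr2, the second oestrogen receptor, was at 0.101 to 0.367 CPM in every E16.5 library with no difference (log2 -0.04, SE 0.43, adjusted p = 0.963), and Nr3c1, the glucocorticoid receptor, was at 87.6, 85.4 and 84.1 CPM in XX and 88.0, 106 and 109 CPM in XY (log2 -0.24, adjusted p = 0.0468). The Nr3c1 call was lost in 6 settings (adjusted p 0.0660 to 0.161). Of the 8 genes of the anti-Müllerian hormone pathway, all tested, 2 were higher in XX at E16.5 and 0 in XY. Only 3 of the 8 had a linked peak, 1 each. Of these 3, 0 were higher in XY (background 14.1%) and 1 was higher in XX (background 13.2%). That gene, Amhr2 itself, had a peak 2.64 kb upstream and was at 11.2, 17.8 and 11.04 CPM in XX and 2.40, 1.47 and 1.60 CPM in XY (log2 2.88, SE 0.22, adjusted p = 4.64e-07).

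The 45 transcription factors of urogenital mesenchyme were linked to 47 peaks through 19 genes, of which 18 were tested. At E16.5, 4 of the 18 were higher in XX and 3 in XY (median log2 0.13), beside 13.2% and 14.1% of all tested genes and 16.9% and 18.6% of linked genes. Over all 43 tested genes of the list, with or without a linked peak, 11 were higher in XX and 9 in XY. Tcf21, a bHLH factor of visceral mesenchyme, was at 140, 136 and 92.4 CPM in XX and 282, 287 and 264 CPM in XY (log2 -1.18, adjusted p = 0.0011). Prrx1, a homeobox factor of mesenchyme, was at 212, 207 and 205 CPM against 134, 135 and 127 CPM (log2 0.65, adjusted p = 4.47e-07), and Twist1 was also higher in XX (log2 0.52). Id1, an inhibitor of bHLH factors with 5 linked peaks, passed in none of the 6 comparisons, and its libraries ranged from 32.6 to 196 CPM over the fetal groups.

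Only 1 of 12 posterior Hox genes, Hoxd12, had a linked peak, and it passed in neither sex comparison, with adjusted p = 0.0736 at E16.5 and 0.00437 there with replicate number as a block. It rose with age in both sexes (log2 1.16 and 1.64).

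Secreted signals were linked to 53 peaks at 26 of 46 genes, all 26 tested. Of all 17858 tested genes, 4478 were linked. At E16.5, 8 of the 26 were higher in XX (background 13.2%) and 11 in XY (background 14.1%), with a median log2 difference of -0.33. Over all 45 tested genes of the list, with or without a linked peak, 16 were higher in XX and 20 in XY. The high share called was thus not particular to its linked genes. Sfrp1, a Wnt antagonist with 8 linked peaks from 7.09 to 44.8 kb away, was at 523, 517 and 394 CPM in XX and 732, 665 and 575 CPM in XY (log2 -0.46, SE 0.11, adjusted p = 0.00468). It fell with age in XX (log2 -0.98) and gave -0.20 in XY (adjusted p = 0.191). Among the others, Wnt4, needed for Müllerian duct formation, was at 101, 107 and 113 CPM in XX and 67.9, 54.7 and 51.1 CPM in XY (log2 0.89, adjusted p = 1.73e-05). Wnt5a, a non-canonical Wnt ligand, was at 500, 500 and 445 CPM against 659, 886 and 769 CPM (log2 -0.68, adjusted p = 2.64e-05). Igf1, a growth factor with 3 peaks 35.0 to 45.3 kb upstream, was at 714, 680 and 758 CPM against 342, 369 and 352 CPM (log2 1.02, adjusted p = 1.38e-07). Bmp2 was higher in XY at both ages, by 1.71 at E14.5 and 0.71 at E16.5 on the log2 scale.

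Of the 23 matrix and contractile genes, 16 had linked peaks, 34 in all. With age 12 rose and 1 fell in XX cells (median log2 0.67) and 15 rose and none fell in XY cells (median log2 0.61), beside medians of 0.00 and -0.01 in all tested genes. Of all tested genes 21% rose and 18.6% fell in XX, and 13.1% rose and 10.2% fell in XY. Over all 23 genes of the list, with or without a linked peak, 18 rose and 2 fell in XX, and 21 rose and 0 fell in XY. In the uterus 12 of the 16 were higher in Gli1+ (background 13.7%) and none in Amhr2+ cells (background 10.1%), with a median log2 difference of -0.95. Over all 23 genes there, 17 were higher in Gli1+ and 0 in Amhr2+ cells. The summed smooth muscle markers were at 677 to 1192 CPM in Amhr2+ and 1571 to 1632 CPM in Gli1+ cells, the mesenchyme markers, which include Col1a1, at 12413 to 13309 against 23458 to 25995 CPM, and the epithelial markers at 49.2 to 49.8 against 17.9 to 28.8 CPM. Their part in the result was not tested. Col3a1, a fibrillar collagen with 5 upstream peaks, was at 9752, 9650 and 8817 CPM in Amhr2+ and 15719, 17376 and 15694 CPM in Gli1+ cells (log2 -0.79, SE 0.07, adjusted p = 0.000127). At E16.5, 5 of the 16 were higher in XX (background 13.2%) and 7 in XY (background 14.1%), and Acta2, Actg2, Cnn1 and Myh11, all smooth muscle genes, were among the 7. Over all 23 genes, 6 were higher in XX and 12 in XY. Acta2, smooth muscle actin, was at 241, 245 and 339 CPM in XX and 1245, 1935 and 2245 CPM in XY (log2 -2.72, SE 0.25, adjusted p = 2.66e-05), and Actg2 at 1.25, 1.31 and 2.30 against 17.3, 28.7 and 37.1 CPM (log2 -4.10, adjusted p = 2.94e-06). These 2 genes belong to the smooth muscle markers whose summed level was given above. The examples Amhr2, Tcf21, Prrx1, Twist1, Hoxd12, Wnt4, Wnt5a, Igf1, Bmp2, Acta2 and Actg2 were chosen after their values were seen.

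Several named genes overlap another gene of the tables, so reads could be shared between them: Tenm4, Tmcc3, Fam65b, Dpt, Hmga2, Col14a1, Boc, Cdon, Col3a1, Wnt5a, Igf1, Prrx1, Tcf21, H2afy2, Rmnd5b, Ptgfrn and RP24-367P22.1.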

How the data were processed

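RNA-seq read counts per gene and a list of ATAC-seq peak positions were used. A non-stranded kit and 250 ng RNA were used for fetal cells and a stranded mRNA kit for uterine cells, per the labels' protocols. The submitters' processing notes name Bowtie 1.2, SAMtools 1.3.1, Picard, bedtools 2.24.0, MACS2 2.1.1, STAR 2.5, featureCounts and Subread 1.5.0-p1, with build mm10. The authors deposited raw, whole-number counts per gene, and the deposited peak list has positions with no score or value per sample, so accessibility by sex or age was not analysed here. The annotation, the use of strand in counting, the peak threshold and the way peaks were unified are not given in the sources used here.

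Distances ran from the nearest peak edge to the nearest gene start. Motif letters were searched on both strands in the 200 bases at each peak's centre, whatever its width, in GRCm38.p6 (mm10). A match is a description, not a shown binding site, and sequences with overlapping letters can match at one place. Counts were analysed with edgeR 4.0.16 (TMM, filterByExpr, robust quasi-likelihood test, Benjamini-Hochberg over all tested genes) in R 4.3.3, with 12 fetal libraries in one fit of 4 group means and 6 uterine libraries in another. Tables were normalized separately, so levels are compared within a table only. Genes were named as the 12 most linked, and, among genes with at least 3 linked peaks, a call, 10 CPM or more on average in the higher group and (interaction apart) groups that did not overlap, the largest 8 each way at E16.5 and 3 each way elsewhere, plus list genes with at least 5 links and the hedgehog and steroid receptor genes. Of the genes so named, 2 are not reported here by name, though they enter the counts. Members, rules and lists were chosen with earlier results of these data known. A pairing by replicate number was read from the data alone. At E16.5 deviations of same-numbered XX and XY libraries correlated at 0.28, 0.11 and 0.40, all above the limit of 0.1. XX replicate 2 and XY replicate 1 also correlated at 0.11, so a pairing there is possible and not established. Counts and p-values come from the fit without a replicate block unless the block is named. On simulated counts for that comparison over 17562 genes, 75 of 100 genes changed by 1 on the log2 scale and 92 of 100 changed by 2 were recovered, with 14 false calls. Alternatives were DESeq2 1.42.0, other normalizations, no count filter, a replicate block, left-out libraries and other distance limits, widths and windows.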

Additional observations from a re-analysis of the deposited data

Results flagged for a closer look

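A change of the sex difference between E14.5 and E16.5 was called by edgeR's interaction test for 649 linked genes. Among the genes named for it, the difference moved toward XX by 1.89 on the log2 scale for Papln, by 1.88 for E330013P04Rik and by 1.73 for Crabp1. It moved toward XY for Epha8 (-2.44), Vldlr (-2.13) and Arhgap26_dup1 (-2.12). Papln, a matrix proteoglycan-like protein, was at 5.85, 5.97 and 5.90 CPM in XX and 11.8, 9.50 and 11.2 CPM in XY at E14.5, and at 13.8, 18.4 and 17.1 against 8.93, 8.31 and 7.17 CPM at E16.5, so the higher sex changed. Vldlr, a lipoprotein receptor, changed sides the other way, with 160, 160 and 173 against 93.6, 82.2 and 96.4 CPM at E14.5 and 76.1, 72.0 and 63.3 against 165, 187 and 157 CPM at E16.5. Arhgap26_dup1 overlaps another gene of the table.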

How the results depend on the processing

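The counts of called linked genes stayed within 1.5 times of the values given under DESeq2, other normalizations, no count filter, links of at most 20 kb or to the nearest tested gene, and distance from the peak centre. They fell where fewer peaks or genes entered: with peaks under the median width left out, and with genes of fewer than 3 linked peaks left out, they were 862 and 318 for sex at E16.5, 249 and 97 at E14.5, 365 and 139 for the interaction, 1071 and 389 for age in XX, 698 and 270 for age in XY, and 683 and 253 in the uterus. With a library left out, the ranges were 1252 to 1761 for sex at E16.5, 223 to 564 at E14.5, 503 to 875 for the interaction, 1625 to 1892 for age in XX, 1144 to 1327 for age in XY and 731 to 1140 in the uterus. For genes linked to a GLI match the XY count was 12 to 16 and the XX count 1 to 2 with a library left out. With 100-base windows the XY count was 8, and with a match anywhere in the peak the XX count was 5. With the replicate block the counts were 1845 for sex at E16.5, 581 at E14.5, 888 for the interaction, 1850 and 1193 for age in XX and XY, and 1447 in the uterus. In the sex comparison at E16.5 the block brought Hoxd12 (adjusted p = 0.00437), Sik1 (0.0444), Sox11 (0.0347) and Zcchc5 (0.00707) under the threshold by edgeR and changed no other call of a named gene. In the uterus same-numbered libraries correlated at 0.002, 0.22 and 0.24, so not all passed the limit of 0.1. In the remaining comparisons all same-numbered pairs were under it. Whether the samples of these comparisons were paired is thus not known. Of 5420 values of named genes under an alternative, 5086 kept their side of the threshold, 231 lost the call, 103 gained it and 0 reversed.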
